A study of Mus musculus with 2 samples.

Results

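The 4 atypical chemokine receptors Ackr1, Ackr2, Ackr3 and Ackr4 were examined together with the chemokine Cxcl12 and its signaling receptor Cxcr4 in single cells sorted from tumor vessels. These 6 genes were chosen by name, among 31055 features counted in both libraries. Wild-type female C57BL6 mice aged 6 weeks received 100000 cells of the pancreatic cancer line KPC or of the mammary cancer line PyMT, and vessel cells were sorted from the digested tumors. The sort depleted cells stained for CD45, EpCAM, Ter119, podoplanin or Annexin V, and each tumor model had 1 droplet library of an unstated number of mice.

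Chemokines are small secreted proteins that act on G protein-coupled receptors. Atypical receptors bind chemokines without coupling to G proteins, and they take up, carry or hold their ligands instead of signaling migration. Ackr1 binds many inflammatory chemokines and is known from venules and red cells, Ackr2 degrades inflammatory CC chemokines and is known from lymphatic vessels, Ackr3 removes Cxcl12, and Ackr4 removes Ccl19, Ccl21 and Ccl25. Cxcl12 and Cxcr4 guide leukocytes, perivascular cells and the sprouting and arterial assembly of vessels.

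The genes lie at these positions of mouse build GRCm38. Ackr1 (ENSMUSG00000037872) spans chr1:173331886-173333750 on the minus strand and overlaps Cadm3 on the same strand, so reads in the overlap cannot be assigned to either gene. Ackr2 (ENSMUSG00000044534) spans chr9:121898355-121911074 on the plus strand. Ackr3 (ENSMUSG00000044337) spans chr1:90203980-90216751 on the plus strand. Ackr4 (ENSMUSG00000079355) spans chr9:104084157-104126933 on the minus strand and overlaps Acad11, which lies on the plus strand. Cxcl12 (ENSMUSG00000061353) spans chr6:117168535-117181367 on the plus strand, and Cxcr4 (ENSMUSG00000045382) spans chr1:128588199-128592293 on the minus strand.

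The stretch of coding sequence that follows the third membrane-spanning segment shows how the atypical receptors compare with a receptor that couples to G proteins. Signaling chemokine receptors carry there the DRY motif (aspartate, arginine, tyrosine), which takes part in G protein coupling. The 21 bases below are exonic coding sequence of GENCODE M21 transcripts, with the codons aligned to the 3 codons of the motif in capitals.
Cxcr4: GACCGGTACctcgctattgtc
Ackr2: GACAAATACctggagattgtc
Ackr3: GACCGCTATctctccatcacc
Ackr4: GACAGATATtgggcaattacc
These are codons 135 to 141 of Cxcr4, 140 to 146 of Ackr2, 141 to 147 of Ackr3 and 136 to 142 of Ackr4. Ackr3 and Ackr4 encoded the same 3 motif residues as Cxcr4, whereas Ackr2 shared 2 of the 3. Each of these 3 genes shared 5 of the 7 residues with Cxcr4. Identity to Cxcr4 over the aligned reading frames was 26.8% for Ackr3, 29.4% for Ackr2 and 32.3% for Ackr4. It is the share of identical residues in the longer reading frame of each pair. Ackr1 was the most distant, with 19.5% identical, and its alignment had a gap at this stretch, so no bases of it are shown.

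The libraries held 44441942 transcripts counted by unique molecular identifier (UMI) in 10236 barcodes in KPC and 55547926 in 12464 barcodes in PyMT. After filtering, 9591 KPC barcodes with a median of 3141 UMIs and 11744 PyMT barcodes with a median of 3978 UMIs remained, and 151 barcode sequences occurred in both libraries. Barcodes were placed in 9 classes by the UMIs of marker genes other than the 6 genes described here. With 1 library per tumor model there was no replicate check, so no test was run, and the tumor model and the library cannot be told apart. Levels are the summed UMIs of a gene scaled to all UMIs of the class (CPM), and they are compared between classes, not between genes. Every interval is an exact 95% interval for counting error.

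The class names held against marker lists that the class rule did not use, with exceptions that touch the results. The venule list was at 4048 CPM in KPC and 3036 CPM in PyMT venule cells, against 1025 and 1463 CPM in capillary cells. The artery list was at 5148 and 3726 CPM in artery cells, and the lymphatic list at 16216 and 13047 CPM in lymphatic cells. The tip list was at 1643 CPM in KPC tip cells against 821 CPM in capillary cells and 793 CPM in other cells, but at 2120 CPM in PyMT tip cells against 1357 and 1523 CPM, so the PyMT tip class was less set apart. In PyMT the capillary class was poorly set apart, with the capillary list at 5167 CPM there and 5151 CPM in venule cells, against 13872 and 5840 CPM in KPC. The cells placed by Krt8 and Krt18 carried 4558 CPM of the epithelial tumor list in KPC but 40.7 CPM in PyMT, so they are called the Krt8/Krt18 class. The 27 PyMT pericyte-class cells also carried the pan-endothelial list at 3202 CPM, as high as PyMT capillary cells, and 16 of them met another class rule as well. The KPC pericyte class carried this list at 2363 CPM, against 4889 CPM in KPC capillary cells.

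Ackr1 was a venule gene in both libraries. In KPC, its level was 526 CPM in the 680 venule cells (1779 UMIs, interval 502 to 551), 70.3 CPM in the other blood endothelial cells (BECs) that met no rule, 20.5 CPM in tip cells, 8.01 CPM in capillary cells and 3.12 CPM in artery cells. In PyMT, it was 366 CPM in the 363 venule cells (670 UMIs, 339 to 395), 23.9 CPM in other BECs, 17.5 CPM in capillary cells and 8.22 CPM in tip cells, with 0 UMIs in the 125 artery cells, where 3 UMIs would make 6.22 CPM. The venule interval overlapped that of no other class in either library. Venule cells exceeded capillary cells 65.7-fold in KPC, a log2 ratio of 6.04 (5.50 to 6.63), and 21.0-fold in PyMT, a log2 ratio of 4.39 (4.17 to 4.62). Ackr1 was the sole member at least 2-fold higher in venule than in capillary cells, of 5 members with enough UMIs (20 over both classes) in each library, while 3.69% of all genes in KPC and 4.01% in PyMT reached that fold. At least 2-fold lower in venule cells was Cxcl12, with log2 ratios of -2.71 (-2.94 to -2.49) in KPC and -1.94 (-2.48 to -1.45) in PyMT, and in PyMT also Ackr2 at -1.61 (-4.70 to 0.33) on 2 against 42 UMIs, where 5.81% and 3.22% of all genes were.

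Not every venule cell carried an Ackr1 UMI. Of the KPC venule cells, 47.2% had at least 1, at a median of 4210.5 UMIs per cell, as did 44.9% in PyMT. With each cell thinned to 2000 UMIs the shares were 35.0% (31.2 to 38.9) and 32.7% (27.6 to 38.2). The KPC Krt8/Krt18 class, which should lack Ackr1 and was deeper with a median of 12688.5 UMIs, had it in 2.14% of cells, or 0.508% after thinning. PyMT lymphatic cells, at a median of 3462 UMIs, had it in 0.632%, or 0.409% after thinning. Single venule cells held up to 48 Ackr1 UMIs in KPC and 25 in PyMT. The venule class held 62.0% of the Ackr1 UMIs of the kept KPC barcodes and 44.2% of those in PyMT, and a further 27.2% and 33.4% lay in other BECs.

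The level of Ackr1 followed the UMIs of Selp, the P-selectin gene that defines the venule class with a cut at 2 UMIs. Among KPC BECs it was 26.5 CPM in cells with 0 Selp UMIs, 173 CPM with 1, 352 CPM with 2 to 3 and 764 CPM with 4 or more. Among PyMT BECs it was 10.6, 135, 267 and 618 CPM in the same bins. No interval overlapped that of a neighboring bin in either library, so the mean level rose on both sides of the class cut. Whether single cells form a gradient or the bins mix different kinds of cells was not tested. There were 254 KPC and 192 PyMT venule cells exactly at the cut, and 364 and 241 cells among the other BECs were 1 UMI below it. Many venule cells met the rule of a later class as well, 177 of 680 in KPC and 231 of 363 in PyMT. Without them, Ackr1 stood at 724 CPM in the remaining 503 KPC cells and 620 CPM in the remaining 132 PyMT cells.

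**Figure D1:**
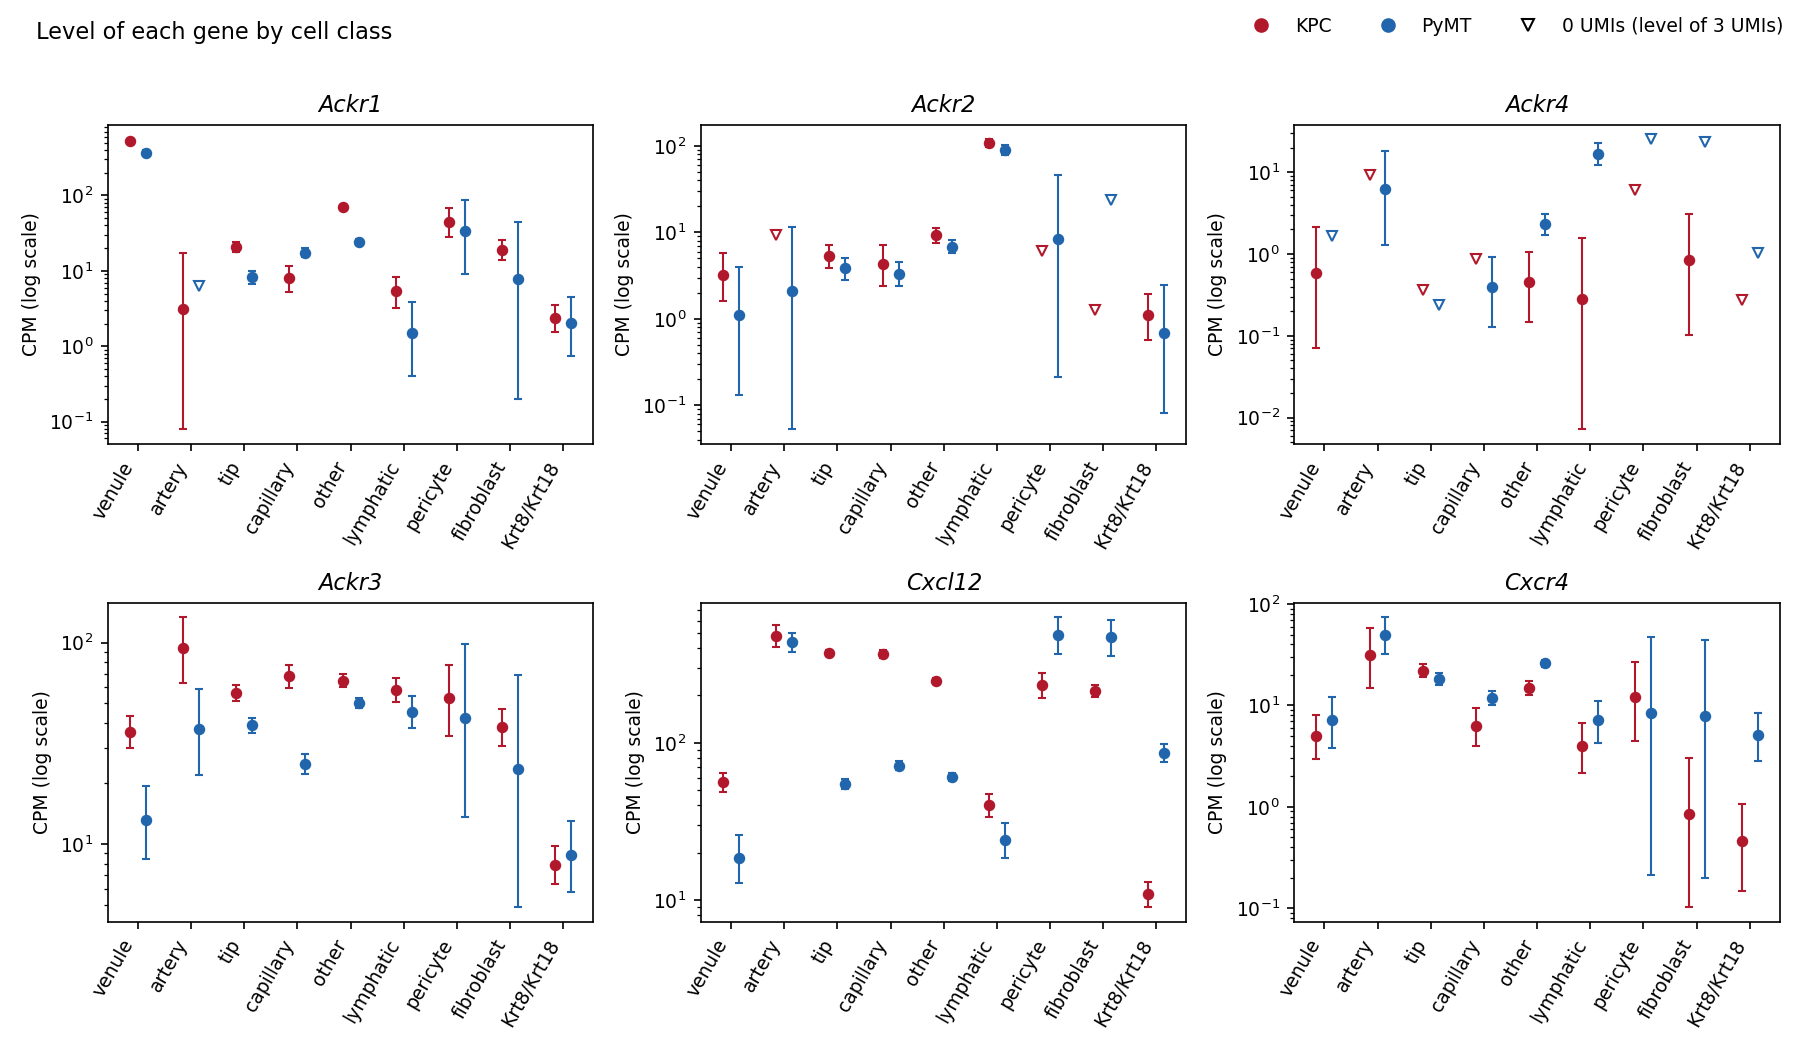
Level of each of the 6 genes in CPM (log scale) in the 9 cell classes of the KPC (red) and PyMT (blue) libraries, with exact 95% Poisson intervals as bars. Open triangles mark classes with 0 UMIs, drawn at the level that 3 UMIs would make. Ackr1 peaked in venule cells at 526 and 366 CPM and Ackr2 in lymphatic cells at 108 and 90.0 CPM, while Cxcl12 in tip and capillary cells lay far apart between the libraries.

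Outside the venules, the Ackr1 level in tip over capillary cells differed in direction between the libraries. In KPC, tip cells held 170 UMIs and capillary cells 28, a log2 ratio of 1.36 (0.78 to 1.99). In PyMT, tip cells held 105 UMIs and capillary cells 220, a log2 ratio of -1.09 (-1.44 to -0.75). The difference between the libraries was not tested. Beside this contrast, the venule list was at 720 CPM in KPC tip cells against 1025 CPM in KPC capillary cells, and at 786 CPM in PyMT tip cells against 1463 CPM in PyMT capillary cells, and its part was not tested. In KPC 35 of the 170 tip UMIs lay in a single cell. The 22 UMIs of the KPC pericyte class (44.8 CPM, 28.1 to 67.8) rested on few cells, with 11 of them in 1 cell.

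By level, Ackr2 was a lymphatic gene in both libraries. Its level was 108 CPM (381 UMIs, 97.2 to 119) in the 802 KPC lymphatic cells and 90.0 CPM (240 UMIs, 78.9 to 102) in the 633 PyMT lymphatic cells. These cells were left after the podoplanin depletion of the sort, and the podoplanin gene Pdpn is in the lymphatic list. How far they stand for all lymphatic cells of the tumors was not tested. Among the BEC classes, other BECs were at 9.28 and 6.87 CPM, tip cells at 5.31 and 3.84 CPM, capillary cells at 4.29 and 3.34 CPM, and venule cells at 3.25 and 1.09 CPM. The PyMT artery and pericyte classes held 1 UMI each, at 2.07 and 8.40 CPM. KPC fibroblasts, pericytes and artery cells held 0 UMIs, where 3 UMIs would make 1.27, 6.11 and 9.37 CPM. The lymphatic interval overlapped that of no other class in either library, whereas tip, capillary and venule cells overlapped among themselves. The lymphatic class held 67.3% of the Ackr2 UMIs of the kept KPC barcodes and 49.7% of those in PyMT. The more numerous BECs together held 30.6% and 49.7%.

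Against all BECs pooled, lymphatic cells had 16.6-fold more Ackr2 in KPC, a log2 ratio of 4.05 (3.79 to 4.32), and 18.3-fold more in PyMT, a log2 ratio of 4.20 (3.93 to 4.46). At least 2-fold higher in lymphatic cells were Ackr2 in KPC, of 5 members with enough UMIs, and Ackr2 and Ackr4 in PyMT, of 6, beside 8.81% of all genes in KPC and 12.7% in PyMT. Ackr1, Cxcl12 and Cxcr4 were at least 2-fold lower there in both libraries, beside 11.4% and 7.07% of all genes. Their log2 ratios were -4.27 (-5.01 to -3.63) and -4.36 (-6.23 to -3.00) for Ackr1, -2.81 (-3.06 to -2.57) and -1.42 (-1.80 to -1.06) for Cxcl12, and -1.92 (-2.80 to -1.15) and -1.48 (-2.22 to -0.83) for Cxcr4. Thinned to 2000 UMIs, 19.7% (16.6 to 23.0) of KPC and 14.7% (11.7 to 18.2) of PyMT lymphatic cells had an Ackr2 UMI, against 32.2% and 27.8% before thinning. In the Krt8/Krt18 classes, of 12688.5 and 6939 median UMIs, the thinned share was 0, and the upper bound of its interval was 0.467% in KPC and 0.974% in PyMT. The median depth of lymphatic cells was 3497 UMIs in KPC and 3462 in PyMT.

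The lymphatic class begins at 3 Mmrn1 and Prox1 UMIs. Other BECs with 2 such UMIs numbered 111 in KPC and 149 in PyMT, and 124 and 171 lymphatic cells stood exactly at the cut. With barcodes holding any Mmrn1 or Prox1 UMI left out, an alternative chosen after seeing the data, the Ackr2 level of all BECs went from 6.51 to 4.55 CPM in KPC and from 4.91 to 3.07 CPM in PyMT. Lyve1, the hyaluronan receptor of lymphatic capillaries, was at 1846 CPM in KPC and 872 CPM in PyMT lymphatic cells and at 70.9 and 36.4 CPM in other BECs. The scavenger Ackr2 and Lyve1 were both present at a lower level in the class that met no rule.

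Ackr4, the scavenger of the Ccl19 and Ccl21 chemokines, was barely detected in KPC and was found in a small set of PyMT cells. The kept KPC barcodes held 10 Ackr4 UMIs in all, of which 1 lay in lymphatic cells, 5 in other BECs, 2 in venule cells and 2 in fibroblasts. The kept PyMT barcodes held 102, of which 45 lay in lymphatic cells, 49 in other BECs, 5 in capillary cells and 3 in a single artery cell. The PyMT lymphatic level was 16.9 CPM (12.3 to 22.6), and that of other BECs was 2.31 CPM (1.71 to 3.05). Venule and tip cells of PyMT held 0 UMIs, with 3 UMIs making 1.64 and 0.235 CPM. Lymphatic cells exceeded all BECs 14.5-fold in PyMT, a log2 ratio of 3.85 (3.26 to 4.44). In KPC the ratio of 1 to 7 UMIs gave a log2 ratio of 0.10 with an interval of -5.39 to 3.06, so no difference was detectable on so few UMIs. Within the lymphatic class, KPC stood below PyMT with a log2 ratio of -5.90 (-11.23 to -3.35) on 1 against 45 UMIs. The class holds the cells that the podoplanin depletion left, and the part of the depletion in this ratio was not tested.

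Within the PyMT lymphatic class, most Ackr4 UMIs lay in cells with Stab2, which encodes a scavenger receptor of sinus-lining endothelium. Lymphatic cells with a Stab2 UMI numbered 37 in PyMT and held 31 of the 45 Ackr4 UMIs, a level of 192 CPM (130 to 272), while the 596 cells without Stab2 stood at 5.59 CPM (3.05 to 9.37). In KPC 6 lymphatic cells had a Stab2 UMI and none of them had Ackr4, where the interval reached 101 CPM. Of the 19 PyMT lymphatic cells with Ackr4, 13 had Stab2, 7 had Lyve1 and 3 had Ackr2. In the whole PyMT lymphatic class, 5.85% of cells had Stab2, 68.9% had Lyve1 and 27.8% had Ackr2. Ackr2 did not follow Stab2 in the same way, with 68.1 CPM (34.0 to 122) in the PyMT cells with Stab2 and 91.4 CPM (79.9 to 104) in those without, intervals that overlapped.

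**Figure D2:**
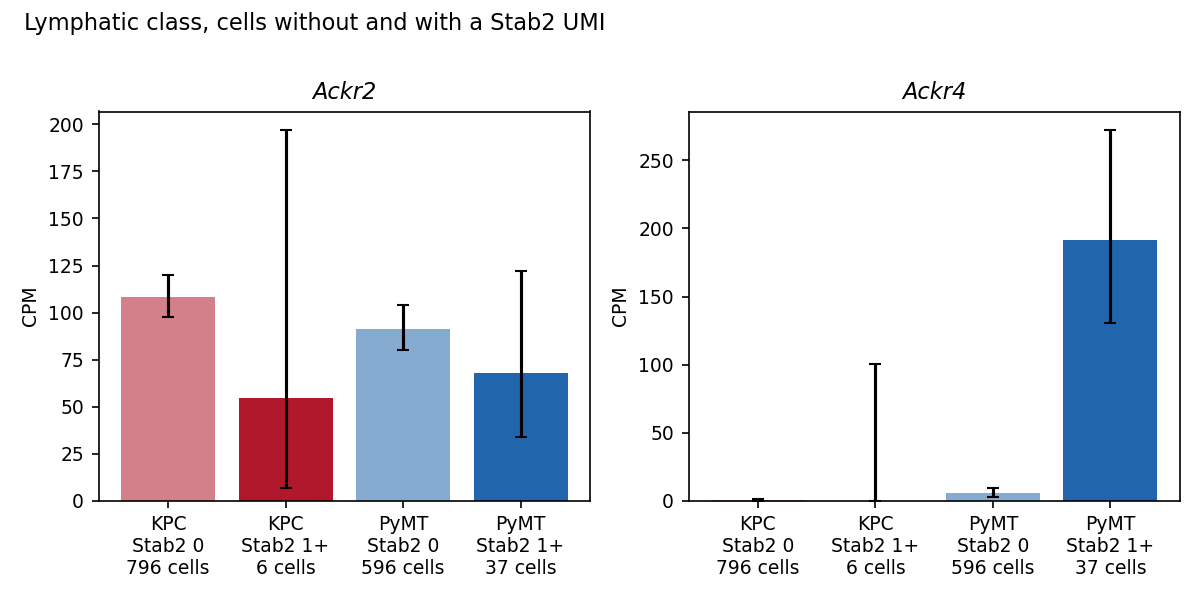
Ackr2 and Ackr4 levels in CPM in lymphatic cells without and with a Stab2 UMI, as bars with exact 95% Poisson intervals and the number of cells under each bar. In PyMT the Ackr4 bar rises from 5.59 CPM to 192 CPM in the 37 cells with Stab2, whereas the Ackr2 intervals overlap.

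Many Ackr4 cells among PyMT BECs also had lymphatic transcripts. Of the 20 other BECs with Ackr4, 16 had an Mmrn1 or Prox1 UMI and 8 had Stab2, and the artery cell with 3 Ackr4 UMIs had both kinds. Among all 5642 PyMT other BECs, 4.31% had Mmrn1, 3.35% had Prox1 and 0.496% had Stab2. Mmrn1 and Prox1 are the genes of the lymphatic rule, so other BECs with them are cells below its cut. Of the 5 PyMT capillary cells with Ackr4, 2 had an Mmrn1 or Prox1 UMI and 0 had Stab2. With barcodes holding an Mmrn1 or Prox1 UMI left out, an alternative chosen after seeing the data, the BEC sum fell from 57 to 19 UMIs and the level from 1.17 to 0.405 CPM (0.244 to 0.633). Other BECs then held 16 UMIs. In KPC, 1 of the 5 other BECs with Ackr4 had an Mmrn1 or Prox1 UMI.

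Ackr3, the atypical receptor that removes Cxcl12, was spread over all vessel classes and was lower in KPC venules, while the lower PyMT value rested on 24 UMIs. In KPC the levels were 93.7 CPM in artery cells, 68.1 CPM in capillary, 64.6 CPM in other BECs, 58.2 CPM in lymphatic, 56.4 CPM in tip and 36.1 CPM in venule cells. In PyMT they were 50.3 CPM in other BECs, 45.4 CPM in lymphatic, 38.8 CPM in tip, 37.3 CPM in artery, 25.0 CPM in capillary and 13.1 CPM in venule cells. Pericyte-class cells and fibroblasts stood between, at 52.9 and 38.1 CPM in KPC and at 42.0 and 23.6 CPM in PyMT. The Krt8/Krt18 class was the lowest in both libraries, at 7.90 CPM in KPC and 8.83 CPM in PyMT. Direct neighbors among the 9 classes had overlapping intervals, apart from the step from KPC venule cells to the Krt8/Krt18 class, but the venule and capillary intervals lay apart in both libraries.

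Venule cells had 0.530 times the Ackr3 level of capillary cells in KPC, a log2 ratio of -0.92 (-1.24 to -0.59), and 0.524 times in PyMT, a log2 ratio of -0.93 (-1.60 to -0.33). The PyMT interval spanned 0 under 3 of the alternatives, at -0.25 (-1.33 to 0.65) without barcodes that met several class rules, -0.70 (-2.61 to 0.72) with cells thinned to 2000 UMIs before the classes were formed and -0.60 (-1.83 to 0.41) with doubled class cuts. Along Selp, Ackr3 was at 65.0 CPM in KPC BECs with 0 UMIs, 42.6 CPM with 1, 37.4 CPM with 2 to 3 and 34.3 CPM with 4 or more. In PyMT it was 41.8 CPM at 0, 16.0 CPM at 1, 12.2 CPM at 2 to 3 and 15.5 CPM at 4 or more, the last on 8 UMIs. The CPM intervals at 0 and 1 Selp UMI lay apart in both libraries, and those of the later bins overlapped. As thinned shares of cells, 0 and 1 Selp UMI overlapped in KPC, at 10.2% (9.19 to 11.2) and 8.25% (5.82 to 11.3), and lay apart in PyMT, at 7.47% (6.92 to 8.04) and 2.24% (1.12 to 3.97). After thinning, 6.57% (4.73 to 8.84) of KPC venule cells had an Ackr3 UMI against 11.4% (8.93 to 14.2) of capillary cells, while in PyMT 3.14% (1.52 to 5.71) of venule and 4.43% (3.63 to 5.34) of capillary cells had one, intervals that overlapped. The Krt8/Krt18 classes stood at 0.635% and 1.06%. Before thinning these shares were 14.1% and 6.06% of venule, 15.9% and 10.3% of capillary, and 9.70% and 5.28% of Krt8/Krt18 cells.

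In tip cells the direction of the Ackr3 level differed between the libraries, while the thinned shares of KPC cells overlapped. Tip over capillary was a log2 ratio of -0.27 (-0.50 to -0.04) in KPC and 0.63 (0.43 to 0.84) in PyMT, a difference between the libraries that was not tested. The thinned KPC shares were 10.8% (9.12 to 12.7) of tip and 11.4% (8.93 to 14.2) of capillary cells. In PyMT they lay apart, at 7.57% (6.42 to 8.84) and 4.43% (3.63 to 5.34). Unthinned, the KPC shares were 25.7% and 15.9%, at median depths of 5373.5 and 1871 UMIs. Binned by the UMIs of 6 tip genes (Esm1, Pgf, Nid2, Kcne3, Mest and Dll4), an alternative chosen after seeing the data, PyMT BECs went from 22.1 CPM at 0 to 1 UMIs to 26.3, 37.1 and 48.5 CPM at 2 to 3, 4 to 7 and 8 or more. KPC BECs showed no such gradient, at 71.0, 47.9, 41.1 and 61.0 CPM in the same bins. Along Gja5 and Sema3g, the artery markers, Ackr3 showed no step outside the intervals in PyMT, with 39.5 CPM at 0 UMIs and 40.0 CPM at 4 or more. In KPC it dropped from 59.5 CPM at 0 UMIs to 37.6 CPM at 1 and stood at 94.4 CPM at 2 to 3 and 88.0 CPM at 4 or more, the last 2 bins on 19 and 11 UMIs.

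Cxcl12, the ligand of Cxcr4 and Ackr3, was high in artery cells of both libraries and differed between the libraries in most other BEC classes. In KPC it was at 478 CPM in artery cells (153 UMIs, 405 to 560), 374 CPM in tip, 367 CPM in capillary, 249 CPM in other BECs and 55.9 CPM in venule cells. In PyMT it was at 438 CPM in artery cells (211 UMIs, 381 to 501), 71.4 CPM in capillary, 60.7 CPM in other BECs, 54.6 CPM in tip and 18.6 CPM in venule cells. The artery intervals of the libraries overlapped, and venule cells were the lowest BEC class in each. Outside the endothelial classes, PyMT pericyte-class cells and fibroblasts were at 487 and 471 CPM on 27 and 28 cells, and the KPC classes at 232 and 214 CPM. A single cell held 31 of the 60 Cxcl12 UMIs of PyMT fibroblasts. The pericyte-class cells of both libraries also carried the pan-endothelial list. Lymphatic cells were low in both, at 40.1 and 24.0 CPM. The KPC Krt8/Krt18 class held 10.8 CPM and the PyMT class 86.3 CPM.

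Artery cells exceeded tip cells 8.02-fold in PyMT, a log2 ratio of 3.0 (2.77 to 3.23). In KPC the log2 ratio was 0.35 (0.11 to 0.59), and it turned to -0.46 with cells thinned to 2000 UMIs before the classes were formed, to -0.04 with doubled class cuts and to -0.19 as a mean over single cells, so no order of artery and tip cells is given for KPC. Of the 5 members with enough UMIs, Cxcl12 and Cxcr4 were at least 2-fold higher in artery than in tip cells in PyMT, where 13.6% of all genes were. In KPC 0 of 5 were, against 14.6% of all genes. At least 2-fold lower was Ackr1 in KPC, at -2.72 (-8.03 to -0.22) on 1 artery UMI, and 0 of 5 in PyMT, beside 9.34% and 9.27% of all genes. For these calls a count of 0 was set to 3 UMIs. Ackr1 in PyMT, with 0 artery against 105 tip UMIs, was therefore not called. The shares of all genes are large and can include genes with 0 artery UMIs, and the artery classes are small, with 104 and 125 cells.

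**Figure D3:**
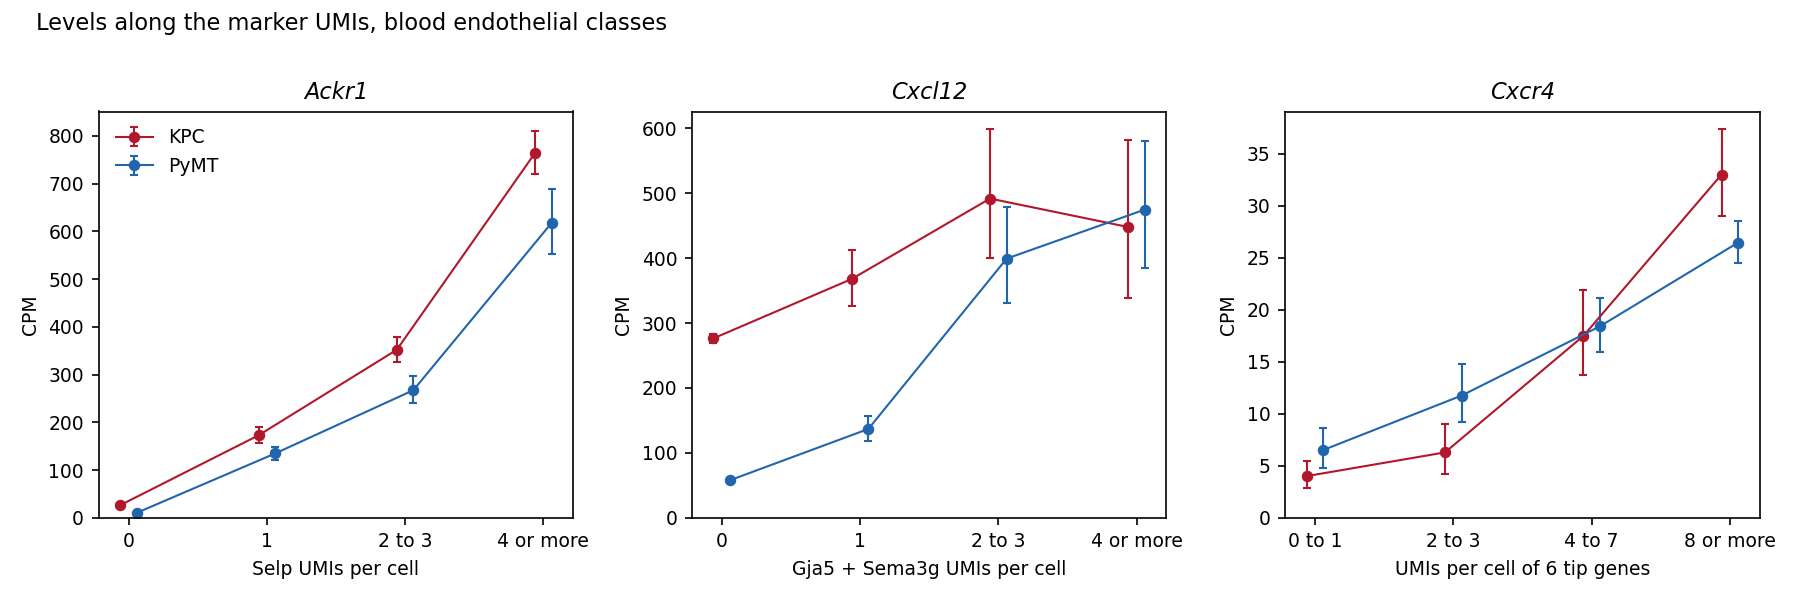
Levels in CPM among BECs in bins of marker UMIs per cell, with exact 95% Poisson intervals, for KPC (red) and PyMT (blue). Ackr1 climbs with Selp to 764 and 618 CPM, Cxcl12 climbs with Gja5 and Sema3g in PyMT from 58.0 to 475 CPM, and Cxcr4 climbs with the 6 tip genes in both libraries.

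Along Gja5 and Sema3g the PyMT level of Cxcl12 went from 58.0 CPM at 0 UMIs to 137 CPM at 1, 399 CPM at 2 to 3 and 475 CPM at 4 or more. The KPC level began at 276 CPM and went to 368, 492 and 448 CPM in the same bins. The libraries thus lay apart in BECs without artery UMIs and met in the highest 2 bins, where their intervals overlapped. Along the capillary markers Car4 and Cd300lg, Cxcl12 went from 264 CPM at 0 UMIs to 363 CPM at 4 or more in KPC. In PyMT it was 61.2 CPM at 0, 80.8 CPM at 2 to 3 and 54.2 CPM at 4 or more, with no steady gradient.

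The share of cells told the same difference at equal depth. Thinned to 2000 UMIs, 33.9% (31.2 to 36.7) of KPC tip cells and 8.92% (7.69 to 10.3) of PyMT tip cells had a Cxcl12 UMI. In capillary cells the shares were 28.0% (24.4 to 31.8) and 8.09% (7.02 to 9.27). The capillary shares cover the deeper cells alone, since 698 of 1287 KPC and 234 of 2583 PyMT capillary cells held under 2000 UMIs and were left out. Artery cells did not differ by their intervals, at 43.9% and 43.4%. Unthinned, tip cells had shares of 49.8% and 18.1%, at median depths of 5373.5 and 5804 UMIs. The KPC Krt8/Krt18 class, in which the gene was near background, had a thinned share of 1.40% and an unthinned one of 7.18%.

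Cxcr4, the signaling receptor of Cxcl12, was low in every class. In KPC it was at 31.2 CPM in artery cells (10 UMIs, 15 to 57.4), 22.1 CPM in tip cells (183 UMIs, 19.0 to 25.5), 14.9 CPM in other BECs, 6.29 CPM in capillary cells and 5.03 CPM in venule cells. In PyMT it was at 49.8 CPM in artery cells (24 UMIs, 31.9 to 74.1), 26.0 CPM in other BECs, 18.3 CPM in tip cells, 11.8 CPM in capillary cells and 7.11 CPM in venule cells. Lymphatic cells were at 3.96 and 7.12 CPM, with intervals that overlapped those of venule and capillary cells in both libraries. The Krt8/Krt18 classes held 0.460 CPM in KPC and 5.09 CPM in PyMT.

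Tip cells exceeded capillary cells 3.51-fold in KPC, a log2 ratio of 1.81 (1.17 to 2.52), and 1.55-fold in PyMT, a log2 ratio of 0.63 (0.33 to 0.94). With cells thinned to 2000 UMIs before the classes were formed, these log2 ratios changed to 0.93 (-0.33 to 2.39) and 1.78 (1.03 to 2.55), so the size was not steady and the KPC interval then spanned 0. In KPC Ackr1 and Cxcr4, 2 of 5 members, were at least 2-fold higher in tip cells, where 3.85% of all genes were, and 0 were at least 2-fold lower, where 7.71% were. In PyMT 0 of 5 were at least 2-fold higher, where 0.947% of all genes were, and Ackr1 was at least 2-fold lower at the -1.09 given above, where 1.77% were. After thinning, 3.55% (2.58 to 4.75) of KPC tip cells had a Cxcr4 UMI against 1.70% (0.817 to 3.10) of capillary cells, intervals that overlapped. In PyMT 3.55% (2.77 to 4.48) of tip and 2.00% (1.47 to 2.65) of capillary cells had one, intervals that lay apart. Other BECs stood at 3.11% (2.41 to 3.96) in KPC and 4.69% (4.10 to 5.34) in PyMT, and artery cells at 4.55% and 5.66% on 3 and 6 cells. The Krt8/Krt18 classes stood at 0 and 0.531%. Unthinned, the tip share was 11% in KPC and 10.0% in PyMT.

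Cxcr4 followed the wider tip list more closely than the 2 genes of the tip rule. Along Apln and Angpt2 it went from 10.5 to 22.1 CPM in KPC and stayed between 17.9 and 24.0 CPM in PyMT. Along the 6 tip genes, it was 4.01 CPM at 0 to 1 UMIs, 6.29 CPM at 2 to 3, 17.5 CPM at 4 to 7 and 33.0 CPM at 8 or more in KPC. In PyMT it was 6.52, 11.7, 18.4 and 26.5 CPM. These bins were chosen after seeing the data, and deeper cells reach higher bins more easily. In thinned cells the share with Cxcr4 was 0.924% in the lowest and 6.35% in the highest KPC bin, and 1.18% and 5.36% in PyMT.

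Between the tumor models, pooled KPC BECs had 4.40-fold more Cxcl12 than PyMT BECs, a log2 ratio of 2.14 (2.08 to 2.20), and 3.38-fold more Ackr1, a log2 ratio of 1.76 (1.67 to 1.85). The median log2 ratio over all 13401 genes was 0.14, which is the shift these values stand on. Ackr3 stood at 0.59 (0.49 to 0.69), Ackr2 at 0.41 (0.12 to 0.70), Cxcr4 at -0.41 (-0.59 to -0.24) and Ackr4 at -2.15 (-3.52 to -1.01), the last on 7 against 57 UMIs. With 6 of 6 members measured, 2 were at least 2-fold higher in KPC, where 10.3% of all genes were, and 1 was at least 2-fold lower, where 3.89% were.

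Within classes the Cxcl12 difference was not even. The log2 ratio of KPC over PyMT was 2.78 (2.66 to 2.90) in tip cells, 2.36 (2.24 to 2.48) in capillary cells, 2.03 (1.94 to 2.13) in other BECs, 1.59 (1.06 to 2.16) in venule cells and 0.74 (0.31 to 1.19) in lymphatic cells. In artery cells it was 0.13 (-0.18 to 0.43), an interval that spans 0. In fibroblasts, the pericyte class and the Krt8/Krt18 class it was negative, at -1.14, -1.07 and -2.99. The ratios of these 3 classes ran opposite to tip and capillary cells, on 28 and 27 PyMT cells in the fibroblast and pericyte classes. Epithelial tumor genes set the Krt8/Krt18 classes of the libraries apart, with their list at 4558 CPM for KPC against 40.7 CPM for PyMT. Capillary genes were higher in the PyMT pericyte class, where their list reached 11235 CPM against 5308 CPM for KPC. Both classes thus differed in makeup between the libraries, and the part of this in their ratios was not tested. In PyMT fibroblasts 31 of the 60 Cxcl12 UMIs lay in a single cell. The shares of fibroblasts with a Cxcl12 UMI were 42.7% (38.0 to 47.4) in KPC and 39.3% (21.5 to 59.4) in PyMT, intervals that overlapped. Limiting BECs to barcodes with at least 3 pan-endothelial UMIs and under 2 Krt8 and Krt18 UMIs left Cxcl12 at 277 and 62.6 CPM, against 282 and 64.0 CPM.

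Ackr3 was higher in KPC within each endothelial class, at log2 ratios of 1.46 (0.82 to 2.16) in venule, 1.44 (1.19 to 1.69) in capillary, 1.33 (0.44 to 2.26) in artery, 0.54 (0.35 to 0.72) in tip, 0.36 (0.22 to 0.50) in other and 0.36 (0.03 to 0.70) in lymphatic cells. Ackr1 was 0.52 (0.39 to 0.65) in venule cells, 1.32 (0.96 to 1.68) in tip cells and 1.56 (1.39 to 1.72) in other cells, but -1.13 (-1.75 to -0.56) in capillary cells. The venule class made up 7.09% of kept barcodes in KPC and 3.09% in PyMT, and its part in the pooled Ackr1 ratio was not tested. Cxcr4 was lower in KPC in capillary cells at -0.91 (-1.63 to -0.26) and in other BECs at -0.81 (-1.07 to -0.56), while the intervals of venule, artery, tip and lymphatic cells spanned 0. The lymphatic Ackr2 ratio was 0.26 (0.02 to 0.50).

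**Figure D4:**
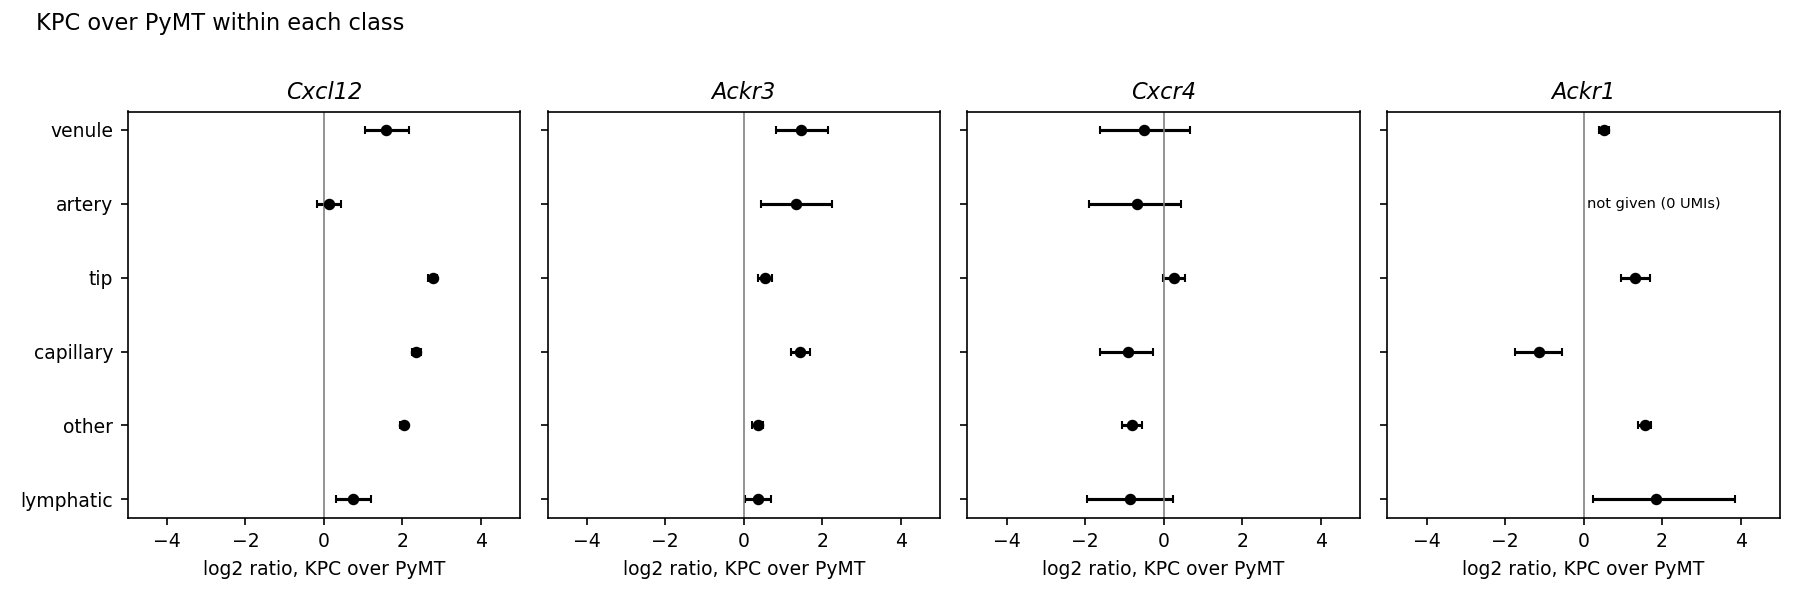
Log2 ratio of KPC over PyMT within each endothelial class for Cxcl12, Ackr3, Cxcr4 and Ackr1, as points with exact 95% intervals for counting error, with 0 as a gray line. Cxcl12 lies near 0 in artery cells at 0.13 and at 2.78 in tip cells, and Ackr1 is below 0 in capillary cells at -1.13; no ratio is given for Ackr1 in artery cells, where PyMT held 0 UMIs.

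The ligand and its receptors were also counted in the same cells, thinned to 2000 UMIs and set beside the product of the shares of each gene. Cxcr4 and Ackr3 occurred together in 38 of 4666 PyMT other BECs (counting interval 26.9 to 52.2) against a product of 18.5, and in 15 PyMT tip cells (8.39 to 24.7) against 5.15. In KPC they occurred together in 12 other BECs (6.20 to 21.0) against 5.76, and in 8 tip cells (3.45 to 15.8) against 4.65. The counts of PyMT other BECs and tip cells and of KPC other BECs lay above the product by more than the counting interval. In capillary cells they were 3 against 1.14 in KPC (0.619 to 8.77) and 1 against 2.08 in PyMT (0.0253 to 5.57), both within it. Cxcl12 and Ackr3 occurred together in 10 PyMT other BECs (4.79 to 18.4) against 25.5, whereas KPC tip cells with both numbered 41 (29.4 to 55.6) against 44.4 and KPC capillary cells 19 against 18.8. Cxcl12 and Cxcr4 occurred together in 14 KPC tip cells against 14.6 and in 8 PyMT other BECs (3.45 to 15.8) against 14.2, both within the interval. Cells of 1 library are not replicates, and other BECs are a mixed class, whose makeup was not tested as a source of these counts.

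**Figure D5:**
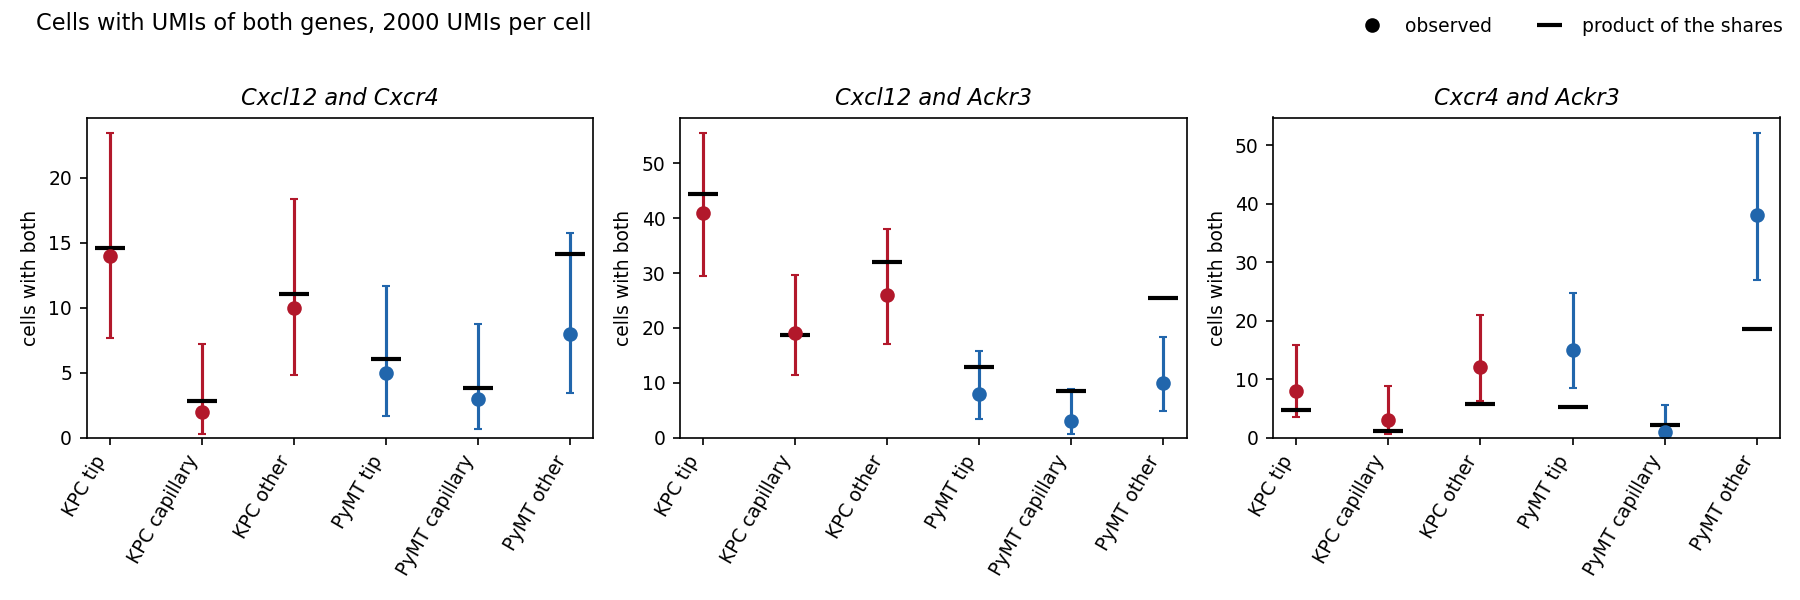
Number of cells with UMIs of both genes of a pair after thinning to 2000 UMIs per cell (points, with exact 95% intervals; KPC red, PyMT blue) beside the product of the shares of the genes times the cells (black lines), in tip, capillary and other BECs. Cxcr4 and Ackr3 lie above the line in PyMT other BECs, 38 against 18.5, and Cxcl12 and Ackr3 below it, 10 against 25.5.

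Genes with the most similar pattern over classes were found by Pearson's r of log2(CPM + 1) over 9 KPC and 7 PyMT classes of at least 50 cells, among 9476 genes, as a description of classes that share a library. Nearest to Ackr1 were Jak2, a kinase of cytokine receptors (r of 0.87 in KPC and 0.91 in PyMT), Ogfrl1 (0.83 and 0.95) and the metal transporter gene Slc39a8 (0.81 and 0.89). Nearest to Ackr2 were Lyve1 (0.93 and 0.95), Gm38832 (0.97 and 0.92) and the sodium channel gene Scn3a (0.92 and 0.91). Nearest to Ackr3 were Bicd2 (0.97 and 0.93), Map4 (0.92 and 0.92) and Smtn (0.91 and 0.95). Nearest to Cxcl12 were Srpr (0.91 and 0.98), Fbxo42 (0.94 and 0.90) and Msx1 (0.87 and 0.98). Nearest to Cxcr4 were Snn (0.92 and 0.92), Rapgef1 (0.91 and 0.93) and the endothelial Notch receptor gene Notch4 (0.95 and 0.90). Ackr4 had 10 UMIs in KPC, too few for such a pattern. Among the members, Cxcl12 and Cxcr4 had r of 0.72 in KPC and 0.71 in PyMT, and Cxcr4 and Ackr3 had 0.77 and 0.65. Cxcl12 and Ackr3 had 0.83 in KPC and 0.14 in PyMT.

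The wider pathway was followed through 38 genes of a list of 39, comprising receptor relatives, chemokines, adrenomedullin genes and signaling partners. In venule over capillary cells, 5 of 24 measured list genes were at least 2-fold higher and 4 lower in KPC, where 3.69% and 5.81% of all genes were. In PyMT 5 of 26 were higher and 4 lower, where 4.01% and 3.22% of all genes were. Called in both libraries were Cd74, which encodes the invariant chain and a Mif receptor, with log2 ratios of 1.70 (1.15 to 2.27) and 2.27 (1.17 to 3.33), and the chemerin-binding receptor gene Ccrl2, with -3.10 (-3.98 to -2.33) and -1.52 (-3.83 to 0.10). In tip over capillary cells, 5 of 25 were higher and 6 lower in KPC, beside 3.85% and 7.71% of all genes, and 2 of 29 were higher and 8 lower in PyMT, beside 0.947% and 1.77%. The monocyte chemokine gene Ccl2, at 4.14 and 1.59, and Adm, which encodes adrenomedullin, an Ackr3 ligand, at 3.32 and 1.72, were higher in both. Gpr182, the gene of another endothelial receptor that scavenges chemokines, was lower in tip cells of both at -2.33 and -1.65, as was Ccl11 at -1.66 and -2.68 on few UMIs.

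In artery over tip cells, 4 of 24 list genes were higher and 7 lower in KPC, beside 14.6% and 9.34% of all genes, and 7 of 21 were higher and 4 lower in PyMT, beside 13.6% and 9.27%. The 7 higher in PyMT included Ccl7 with 0 artery against 31 tip UMIs, called only because 0 was set to 3 UMIs. Higher in both were Cx3cl1, the membrane-bound chemokine gene, at 2.77 (1.60 to 3.80) and 4.02 (2.79 to 5.18), and Ccrl2 at 2.05 (0.76 to 3.14) and 2.12 (0.91 to 3.14). Cxcl1 was at 1.42 (0.24 to 2.41) on 9 artery UMIs in KPC and at 1.14 (-0.79 to 2.59) on 4 in PyMT, where the interval spanned 0. Lower in both were Mif, a ligand of Cd74 and Cxcr4, at -1.45 and -1.79, Ccl21a at -1.16 and -1.27, Ccl2 with 0 artery UMIs in each library, and Adm with 1 and 0 artery UMIs. In lymphatic cells over BECs, 4 of 32 were higher and 14 lower in KPC, beside 8.81% and 11.4% of all genes, and 10 of 30 were higher and 2 lower in PyMT, beside 12.7% and 7.07%. Ccl21a, an Ackr4 ligand, was at 13420 CPM in KPC and 11477 CPM in PyMT lymphatic cells, log2 ratios of 5.52 and 5.42 over BECs. Gpr182 at 1.32 and 2.33 and Ccl2 at 1.90 and 2.74 were also higher in both, and Cxcl14 at -2.86 and -2.78 was lower. Cx3cl1 was at -2.02 (-3.35 to -0.95) in KPC, and in PyMT at -2.42 (-7.74 to 0.09) on 1 against 98 UMIs, an interval that spanned 0. The level of Ccl21a was high in lymphatic cells of both libraries, while its scavenger Ackr4 had 1 UMI in those of KPC and 45 in those of PyMT.

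Between the tumor models, 17 of 35 measured list genes were at least 2-fold higher in KPC BECs and 2 were lower, beside 10.3% and 3.89% of all genes, with a median log2 ratio of 0.99 over the list against 0.14 over all genes. The list was drawn up with earlier results of these data known. Gpr182 was higher in KPC at 1.38 (1.17 to 1.59) and Ccrl2 at 1.73 (1.50 to 1.96), and so was Ramp3, which encodes a partner of the adrenomedullin receptor, at 2.95 (2.84 to 3.07). The interferon-induced chemokine gene Cxcl9 was lower at -1.73 (-1.89 to -1.57), as was Ccl20 at -6.09 on 2 against 251 UMIs. Beside these values, the immune list was at 106 CPM in KPC and 30.8 CPM in PyMT BECs, with UMIs of 6 of its 6 genes in each. The fibroblast list was at 152 and 53.5 CPM and the epithelial tumor list at 23.9 and 0.798 CPM, with UMIs of 5 of 5 genes of each list in both. The part of these lists in the difference was not tested. Leaving out barcodes with 3 or more immune UMIs, 131 KPC and 89 PyMT BECs, moved none of the 18 ratios of the 6 members outside its interval. The ratios of the list genes were not repeated without these barcodes.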

How the data were processed

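Sorted tumor endothelial cells of 2 tumor models were sequenced as 1 droplet library each. The authors aligned reads to mm10 with Cell Ranger (version 3.0.2 in the matrix headers, 3.0 in the submitters' processing notes) and deposited UMI counts per gene and barcode as whole numbers, without normalization. The sources name both v2 and v3 chemistry and do not state the number of mice.

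A barcode had to hold 500 or more genes and less than 10% of its UMIs in mitochondrial genes, a filter that 645 in KPC and 720 in PyMT did not pass. Each barcode took the first class whose marker UMIs reached a cut, in the order Krt8 and Krt18 (cut 5), fibroblast Col1a1 and Col1a2 (10), lymphatic Mmrn1 and Prox1 (3), pericyte Notch3 and Higd1b (2), venule Selp (2), artery Gja5 and Sema3g (2), tip Apln and Angpt2 (3), capillary Car4 and Cd300lg (2), else other. BECs are the venule, artery, tip, capillary and other classes. No doublet caller was run, and barcodes meeting several rules were left out as an alternative instead.

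CPM were given exact Poisson intervals, log2 ratios exact conditional binomial intervals, and shares of cells Clopper-Pearson intervals (95% each). PCR and free RNA are not covered by them. The CPM and ratio intervals also treat UMIs of the same cell as independent. These intervals can therefore be too narrow where single cells hold many UMIs of a gene. Shares were repeated with each cell thinned to 2000 UMIs, which left out 3155 KPC and 1474 PyMT barcodes. A gene was called at a 2-fold difference with at least 20 UMIs over both classes. For this call, a class without UMIs of a gene was given 3 UMIs. A gene without UMIs in a small class can therefore be called higher there. Calculations used Python 3.11.15, numpy 2.4.6, scipy 1.17.1, pandas 2.3.3 and Biopython 1.88, and were tested on simulated Poisson counts. Those counts did not include UMIs gathered in single cells. Positions and sequences are from GENCODE M21 (GRCm38), which held 30934 of the 31055 features.

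The members, the class rule and the gene lists were chosen with earlier results of these data known. Named genes are the 6 members, list genes called in the same direction in both libraries (and the list genes named between the tumor models, chosen after their values were seen), and for each member the 3 genes of most similar pattern among genes with at least 200 UMIs in each library.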

Additional observations from a re-analysis of the deposited data

Results flagged for a closer look

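Of the member ratios above, 2 contrasts had opposite directions in the libraries with both intervals off 0. Neither difference was tested, since each tumor model had 1 library. The count leaves out the list genes, some of which also differed in direction between the libraries. Other member ratios of opposite sign, such as Cxcl12 in tip over capillary cells at 0.03 and -0.39, had an interval spanning 0 in at least 1 library. Ackr1 in tip over capillary cells had a log2 ratio of 1.36 in KPC and -1.09 in PyMT. Leaving out barcodes that met several class rules, the levels behind it were 18.9 and 8.01 CPM in KPC tip and capillary cells and 10.0 and 17.5 CPM in PyMT. The thinned shares of tip and capillary cells with an Ackr1 UMI had overlapping intervals in both libraries. Ackr3 in tip over capillary cells had a log2 ratio of -0.27 in KPC and 0.63 in PyMT. Its thinned shares in these classes had overlapping intervals in KPC and lay apart in PyMT. No group had the 4 samples needed to look for a sample far from the others.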

How the results depend on the processing

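No paired analysis was possible because each tumor model has 1 library, and for the same reason no library could be left out. Of 18 ratios of the members, Cxcl12 artery over tip in KPC reversed, from 0.35 to -0.46 thinned to 2000 UMIs, -0.04 with class cuts doubled and -0.19 as a mean of single cells. The cause was not tested for this or the values that follow. Thinning gave 1.96 for Ackr1, 0.72 for Ackr2 and 1.99 for Cxcl12 in KPC over PyMT, 3.51 (KPC) and 3.72 (PyMT) for lymphatic Ackr2, 2.30 for Cxcl12 artery over tip in PyMT, and 0.93 (KPC) and 1.78 (PyMT) for Cxcr4 tip over capillary. Doubled cuts gave 8.34 (KPC) and 5.14 (PyMT) for Ackr1 venule over capillary, 3.46 and 3.80 for lymphatic Ackr2, 2.07 for Cxcl12 in KPC over PyMT and 1.18 for Cxcr4 tip over capillary in PyMT. The mean of single cells gave 1.34 for Ackr1, 0.04 for Ackr2, 0.90 for Ackr3 and -0.74 for Cxcr4 in KPC over PyMT, and 3.87 for lymphatic Ackr2 in PyMT. Without barcodes meeting several rules, Ackr1 was 1.97 in KPC over PyMT and 5.15 in venule over capillary in PyMT, Ackr3 venule over capillary in PyMT -0.25, and Cxcr4 tip over capillary in PyMT 0.97. At least 1000 genes and under 5% mitochondrial UMIs gave 2.02 for Ackr1 and 0.46 for Ackr3 in KPC over PyMT, and 3.27 for Cxcl12 artery over tip in PyMT. Median-of-ratios scaling gave 1.65 for Ackr1, 0.49 for Ackr3 and 2.03 for Cxcl12 in KPC over PyMT. The alternatives without immune barcodes and with endothelial barcodes alone (the latter chosen after seeing the data) moved 0 of 18 ratios. The count of genes at least 2-fold higher followed the filter. With at least 100 UMIs and with no filter it was 124 and 741 for venule over capillary in KPC (133 and 1256 in PyMT), 197 and 655 for tip over capillary (27 and 331), 537 and 3408 for artery over tip (572 and 3217), 597 and 2361 for lymphatic cells (875 and 3475) and 749 and 2210 for KPC over PyMT, with 255 and 825 lower. Counts of lower genes were 289 and 1022 for venule over capillary in KPC, 450 and 1307 for tip over capillary in KPC and 63 and 574 in PyMT, and 115 for venule over capillary in PyMT with at least 100 UMIs; the others stayed within 1.5 times. Low counts limit the Ackr4 ratios of KPC, which rest on 10 UMIs, and every artery value.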
